A study of Saccharomyces cerevisiae with 4 samples.

Results

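BY4741 cells and RM11-1a cells were grown mixed in a shared flask, and the reads of each gene were counted separately for the 2 strains, so that the strains could be compared in the same medium. The comparison used the 2 co-culture libraries of the 4 libraries in the series, called replicates 1 and 2, and all 4442 gene pairs, a pair being the BY copy and the RM copy of a gene. BY4741 is a haploid laboratory strain and RM11-1a a haploid strain derived from a vineyard isolate, and the labels give mating type a for the co-culture. The other 2 libraries came from an a/alpha diploid hybrid, the cross BY4741xRM11-1alpha, and were used only to set the allele ratio of the hybrid beside a strain ratio. The RM parent of the hybrid is thus named RM11-1alpha and not RM11-1a. Differences between these RM strains beyond mating type were not tested, and they would enter each comparison of co-culture and hybrid ratios. Both kinds of culture were harvested at an OD600 of 1.0 after growth at 30 °C with shaking at 250 rpm. Each strain is a single genotype, so a difference between them cannot be assigned to a locus from the co-culture alone.

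Cells that share a flask share its medium, temperature and density. BY and RM descend from lineages that differ at many sites, among them sites in the coding regions of regulators such as AMN1, an inhibitor of mitotic exit and of daughter release, and HAP1, a heme-dependent activator of respiratory genes. The BY lineage is known to carry a transposon insertion in HAP1 and to grow as separate cells, while RM cells tend to stay joined after division.

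The unit of every level is CPM, the read count of a gene per 1000000 reads in the same strain's column of the library. That scaling takes out the share of each strain in the flask, and how many cells a strain had and how much RNA each of its cells gave cannot be told apart. BY reads made up 49.53% of the 2692044 reads of replicate 1 (95% Wilson interval 49.47 to 49.59) and 49.51% of the 3143817 reads of replicate 2 (49.46 to 49.57). The median pair had 219 and 257 reads. With 0 reads, a level of up to 2.25 and 1.927 CPM remains possible in BY and of up to 2.208 and 1.89 CPM in RM (3 reads of the column), and intervals and floors cover counting error only. Reads were counted on SNP sites, so CPM can be compared between the strains of a pair but not between genes. Replicates are technical per the labels, and p-values therefore measure the spread between technical replicate samples. Ratios are log2 BY over RM, with n = 2 libraries. Their SE is that of the edgeR fit, whose estimate of spread borrows from other gene pairs (19.87 prior degrees of freedom beside 1 residual). The SE and the p-values are therefore not set by the 2 library ratios of a pair alone. YCL021W-A, for example, had ratios of 5.61 and 3.88 in replicates 1 and 2 and an SE of 0.32.

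The labels were checked against genes that mark the strains and the mating type. For MET17 (YLR303W), the O-acetylhomoserine sulfhydrylase gene, which BY4741 lacks, the 2 libraries held 533 RM reads against 0 from BY, at least 174-fold higher in RM (floor of 3 reads over both libraries), although it overlaps another gene. The 5 measured a-cell markers summed to 5967 and 6078 CPM in BY and 7517 and 7611 CPM in RM. Of the alpha-cell markers, 3 were measured and summed to 33.75 and 43.68 CPM in BY and 42.69 and 38.43 CPM in RM. Both strains thus had reads of the a-cell markers, and few reads fell on the alpha-cell markers in either. The 3 measured markers of meiotic cells summed to 107.2 and 111.8 CPM in BY and 43.43 and 29.61 CPM in RM, and the excess in BY lay in IME1 (YJR094C), an inducer of meiosis. The other 2, IME2 (YJL106W), a meiotic kinase gene, and SPO11 (YHL022C), of meiotic DNA breaks, were at −0.09 and 0.14 and were not called.

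The strains differed at a large share of their genes, mostly by less than 2-fold. A pair was called when its adjusted p was under 0.05 in the quasi-likelihood test of edgeR, adjusted by Benjamini-Hochberg over the 4224 pairs tested. Of these, 1768 (41.9%) were called, 1062 higher in BY (25.1%) and 706 higher in RM (16.7%). Called pairs at least 2-fold apart numbered 267 higher in BY (6.32%) and 116 higher in RM (2.75%), and at least 8-fold (3 on the log2 scale) 31 and 9. The median size of the log2 ratio over all tested pairs was 0.275, and the ratios ran from −0.695 at the 5th percentile to 1.21 at the 95th. With TMM scaling, which moved the median ratio of all pairs from 0.0849 to 0.00403, 825 pairs (19.5%) were higher in BY and 915 (21.7%) in RM, so which strain had more higher genes depends on the scaling. The same direction under both scalings was called for 825 pairs in BY and 706 in RM, and 0 pairs were called in opposite directions. DESeq2 called 646 pairs, all of them also called by edgeR. Without replicate 1 the calls were 662 in BY and 506 in RM, and without replicate 2 they were 566 and 429.

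**Figure D1:**
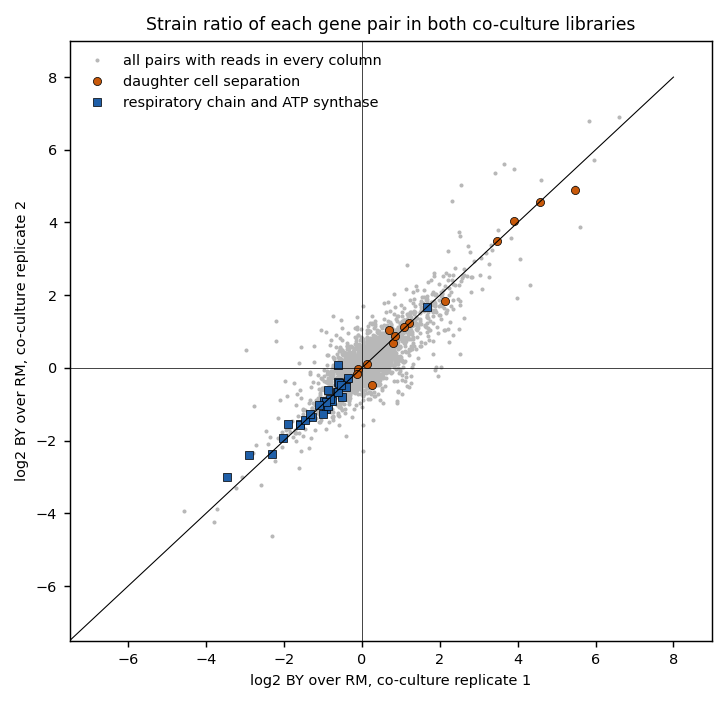
Each point is a gene pair, with its log2 BY over RM in co-culture replicate 1 on the x axis and in replicate 2 on the y axis; the line marks equality, circles are daughter cell separation genes and squares are genes of the respiratory chain and ATP synthase. The circles that were called lie above 0 in both libraries, and all squares but 2 lie below 0 in both libraries.

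Ratios were close in the libraries. Over 4216 pairs the log2 ratios of replicates 1 and 2 had a Pearson r of 0.843, a description across genes, and a median absolute difference of 0.17. Of the called pairs, 1767 had the same direction in both libraries. The share of BY reads of a pair differed between the libraries by a chi-square of 1.14 per degree of freedom (4158 pairs), and the BY and RM columns themselves by 1.86 and 2.06, more than sampling noise alone.

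Most genes of the daughter cell separation list were higher in BY, some of them by more than 10-fold. After division the cells are joined by a chitin septum and wall material, which enzymes made in the daughter digest. Of 15 tested genes of the list, 10 were called higher in BY (66.7%, beside 25.1% of all tested pairs) and none (0) in RM (beside 16.7%). The median log2 ratio was 0.87 beside 0.08 over all tested pairs. CTS1 (YLR286C), the endochitinase gene, stood at 5975 and 5726 CPM in BY and at 399 and 350 CPM in RM. Both BY values lay far above both RM values, and the ratio was 3.97 ± 0.04 on the log2 scale, 15.7-fold (adjusted p = 2.52e-26). DSE2 (YHR143W), which encodes a daughter-specific wall glucanase, had 1663 and 1591 CPM in BY and 69.9 and 66.8 CPM in RM, a log2 ratio of 4.57 ± 0.07. DSE1 (YER124C), a daughter-specific gene for a wall-associated protein, had 592 and 585 CPM in BY and 13.2 and 19.5 CPM in RM, a log2 ratio of 5.14 ± 0.12. For SCW11 (YGL028C), a glucanase gene, the levels were 683 and 635 CPM in BY and 61.8 and 56.7 CPM in RM. None of these 4 genes, which are among the largest called ratios, had overlapping levels in the strains, and the share of such pairs over all tested pairs was not counted.

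The rest of the list split by role. Other called members had smaller ratios. DSE4 (YNR067C), an endoglucanase gene, was at 1.97, SUN4 (YNL066W), a septum gene, at 1.22, DSE3 (YOR264W), a daughter-specific gene, at 1.10, EGT2 (YNL327W), a wall gene of cell separation, at 0.87, BUD9 (YGR041W), of bud site choice, at 0.87 and PRY3 (YJL078C), a wall protein gene, at 0.73. Regulators were among the 5 members that were not called. SWI5 (YDR146C), a transcription factor gene of the end of mitosis, was at −0.06, ASH1 (YKL185W), a daughter-specific repressor, at 0.11, CBK1 (YNL161W), a kinase gene of cell separation, at −0.14, and MOB2 (YFL034C-B), its partner subunit, at −0.12. AMN1 (YBR158W) had 1057 and 1125 CPM in BY and 499 and 493 CPM in RM, a log2 ratio of 1.14 ± 0.05 (adjusted p = 1.1e-14). The gene for the inhibitor of daughter release was thus higher in the same strain as the genes for the releasing enzymes. In the hybrid the BY over RM ratio of CTS1 was −0.30, of DSE1 −0.15, of DSE2 −0.16, of SCW11 0.09 and of AMN1 0.08 on the log2 scale. The co-culture ratio minus the hybrid ratio was called for all 5, with adjusted p-values from 1.48e-148 (CTS1) to 6.4e-23 (AMN1), against 1151 of 4269 pairs called in that difference (27.0%).

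The factor Swi5 binds the letters GCTGG, which were searched on both strands of the 500 bases before each start codon in the RefSeq R64 genome. That genome is of the laboratory lineage of BY4741, and the bases of RM11-1a were not used here. The window holds the 5′ UTR and can reach into a neighbouring gene. Of the 15 tested members, 10 held the letters (66.7%), 8 of the 10 called and 2 of the 5 not called, beside 35.9% of 6000 windows. A site is shown for each of 3 called genes, on the strand of the gene, with the motif, or its reverse complement, in capitals.
DSE2: ttcaagtaaaCCAGCaatatcgact
SCW11: ttgtttacaaGCTGGatactagatc
EGT2: tgagtaagatGCTGGtttgatgcta
They lie at chrVIII:385239-385263 on the plus strand, chrVII:443231-443255 on the minus strand and chrXIV:23841-23865 on the plus strand. The motifs lie 261, 336 and 197 bases before the start codon. CTS1, the gene with the most reads of the list, held no GCTGG in this window.

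Genes of the respiratory chain and of ATP synthase were higher in RM almost without exception. These mitochondrial complexes pass electrons from substrates to oxygen and make ATP, and yeast represses many of their genes while it ferments glucose. Of 29 tested genes, 27 were called higher in RM (93.1%, beside 16.7% of all tested pairs) and 1 in BY (3.45%, beside 25.1%). Their median log2 ratio was −0.94, and the counts were the same with TMM scaling. CYC1 (YJR048W), the gene of the main cytochrome c isoform, stood at 50.2 and 70.7 CPM in BY and at 552 and 569 CPM in RM. All RM values exceeded all BY values, and the ratio was −3.20 ± 0.10, 9.16-fold higher in RM (adjusted p = 3.5e-17). RIP1 (YEL024W), the Rieske iron-sulfur subunit gene of complex III, had 151 and 132 CPM in BY and 740 and 678 CPM in RM, a ratio of −2.33 ± 0.07. CYT1 (YOR065W), the complex III cytochrome gene whose product hands electrons to cytochrome c, had 210 and 227 CPM in BY and 855 and 862 CPM in RM, a ratio of −1.97 ± 0.06. In the hybrid these 3 genes had log2 ratios of 0.04, 0.03 and −0.05. For 26 of the 29 members the co-culture ratio was lower than the hybrid ratio by the test of the difference. The same held for 436 of all 4224 tested pairs.

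Each of the complexes in the list had members higher in RM. Complex III genes ran from −2.33 for RIP1 over −1.58 for QCR10 (YHR001W-A) and −1.30 for QCR2 (YPR191W) to −0.85 for QCR8 (YJL166W). Succinate dehydrogenase ran from −1.68 for SDH1 (YKL148C) to −0.50 for SDH3 (YKL141W). ATP synthase members were mostly within 2-fold, from −0.94 for ATP1 (YBL099W) to −0.31 for ATP7 (YKL016C), with ATP20 (YPR020W), a dimer-associated subunit gene, apart at −2.59 ± 0.35 on 3.75 and 5.14 CPM in BY. In cytochrome c oxidase, COX12 (YLR038C) was at −1.44 and COX4 (YGL187C) at −1.15, while COX8 (YLR395C), at −0.26, was the member that was not called. COX5B (YIL111W), the isoform of subunit 5 that yeast uses when oxygen is low, went the other way, with 72 and 70.7 CPM in BY and 22.8 and 22.1 CPM in RM (1.67 ± 0.19, adjusted p = 1.84e-07).

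The letters CCAAT, bound by the Hap2/3/4/5 complex that activates respiratory genes, stood in the windows of 26 of the 29 members (89.7%) beside 62.4% of all windows. The run CGGNNNTA, a part of the Hap1 site and not the whole, stood in 6 of the 29 members (20.7%), beside 34.4%. Whole Hap1 sites were not searched. A CCAAT of each of 2 complex III genes is shown.
RIP1: ccataacggaCCAATcagcgttttg
QCR7: cttgttttgaCCAATcaggagcgac
They lie at chrV:107003-107027 on the plus strand and at chrIV:1496715-1496739 on the minus strand. HAP1 (YLR256W) itself had 624 and 626 CPM in BY and 291 and 267 CPM in RM, higher in BY by 1.17 ± 0.06 (adjusted p = 9.81e-13). Reads of HAP1 were thus more abundant in the strain in which most respiratory genes were lower. QCR7 (YDR529C), named for its site, had a log2 ratio of −1.31.

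Pathways next to the respiratory chain had calls in both directions or small ratios. Of 10 TCA cycle genes, 2 were called higher in BY (20%, beside 25.1% of all tested pairs) and 3 in RM (30%, beside 16.7%). Their median was −0.08, and with TMM scaling 1 and 4 were called. IDH2 (YOR136W), an isocitrate dehydrogenase gene, had 998 and 986 CPM in BY and 637 and 592 CPM in RM (0.69 ± 0.05), and CIT1 (YNR001C), the citrate synthase gene, was at −0.37. Of 9 heme and oxygen response genes 2 were called in each direction (22.2%, beside 25.1% of all tested pairs in BY and 16.7% in RM), and with TMM scaling 1 in BY and 2 in RM. HEM13 (YDR044W), a heme synthesis gene that low oxygen and low heme induce, had 169 and 193 CPM in BY and 85.4 and 81.9 CPM in RM (1.12 ± 0.11), while HEM1 (YDR232W), of the first step of the pathway, was at −0.60 and YHB1 (YGR234W), the flavohemoglobin gene, at −0.43. Mitochondrial ribosomal protein genes, a group taken by symbol after the values were seen, had 22 of 42 called in RM and 0 in BY (median −0.38). The shares over all tested pairs were 16.7% in RM and 25.1% in BY. In glycolysis and fermentation, 1 of 8 was called in BY (12.5%, beside 25.1%) and 5 in RM (62.5%, beside 16.7%). The median was −0.15, ratios being small except for ALD6 (YPL061W), an acetaldehyde dehydrogenase gene, at −1.07 ± 0.03.

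**Figure D2:**
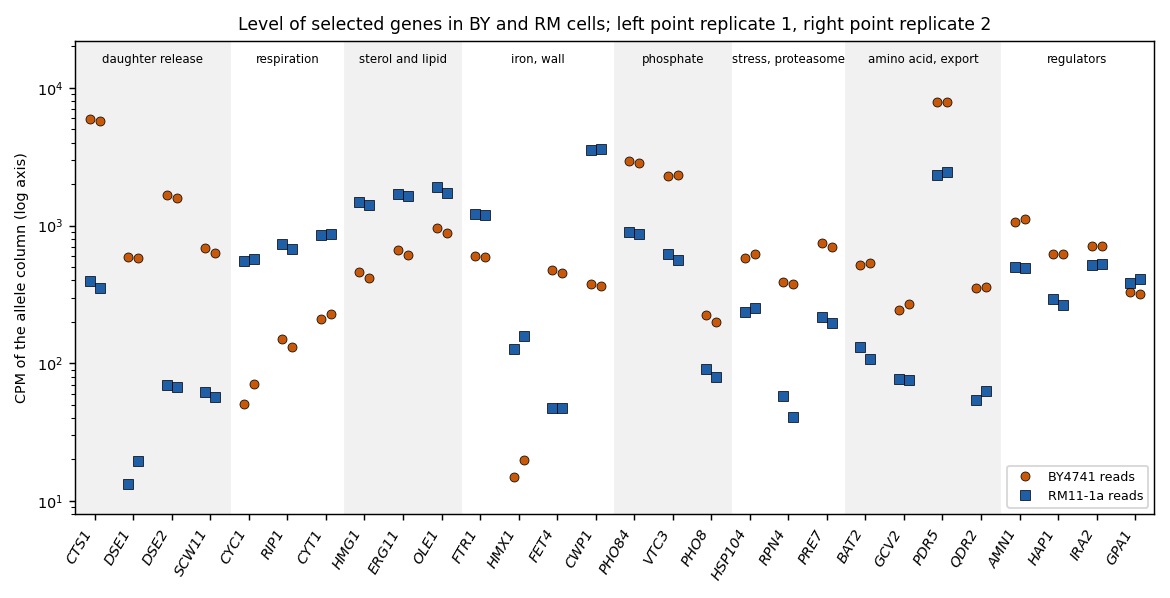
CPM of the BY column (circles) and of the RM column (squares) on a log axis for selected genes by group, with replicate 1 to the left and replicate 2 to the right in each pair of points. The strains do not overlap for any of these genes, from DSE1 (13.2 CPM in RM and 592 in BY in replicate 1) to GPA1 (319 CPM in BY in replicate 2, 383 in RM in replicate 1). The genes were selected from called pairs, so this is no separate result. The share of pairs without overlap among all tested pairs was not counted.

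Sterol synthesis genes were higher in RM along most of the pathway. Ergosterol is the main sterol of fungal membranes, and the steps run from acetyl units over mevalonate and squalene to ergosterol. Of 20 tested genes, 15 were called in RM (75%, beside 16.7% of all tested pairs) and 2 in BY (10%, beside 25.1%). Their median was −0.61. HMG1 (YML075C), which encodes the major isoform of HMG-CoA reductase, had 458 and 413 CPM in BY and 1494 and 1416 CPM in RM. The ranges lay apart by about 3-fold, and the ratio was −1.74 ± 0.05 (adjusted p = 2.32e-18). HMG2 (YLR450W), the minor isoform, had 321 and 326 CPM in BY and 319 and 302 CPM in RM and was not called. ERG11 (YHR007C), the lanosterol demethylase gene, had 663 and 614 CPM in BY and 1700 and 1648 CPM in RM (−1.39 ± 0.04). ERG25 (YGR060W), the sterol methyl oxidase gene, was at −0.93 ± 0.04, ERG5 (YMR015C), the desaturase gene, at −1.30 and ERG28 (YER044C), a scaffold gene, at −2.52 on 7.5 and 12.2 CPM in BY. IDI1 (YPL117C), the isopentenyl diphosphate isomerase gene, and NCP1 (YHR042W), a reductase gene that serves ERG11, were higher in BY, by 0.94 ± 0.07 and 0.28 ± 0.04. The activator genes UPC2 (YDR213W) and ECM22 (YLR228C) were not called, at −0.05 and −0.17.

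Upc2 and Ecm22 bind TCGTATA, which stood in the windows of 6 of the 20 genes (30%), all 6 called in RM, beside 7% of all windows. ERG25 holds 2 such runs, of which the first is shown.
ERG25: ctgcctccctTCGTATAcgggacacag
It lies at chrVII:610071-610097 on the plus strand.

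Fatty acid and phospholipid genes were called in both directions. Of 16 tested, 6 were called in BY (37.5%, beside 25.1% of all tested pairs) and 7 in RM (43.8%, beside 16.7%). Their median was −0.03, and with TMM scaling 5 and 8 were called (beside 19.5% and 21.7% of all tested pairs). The synthesis genes ACS2 (YLR153C), for the cytosolic acetyl-CoA supply, FAS1 (YKL182W), FAS2 (YPL231W) and ACC1 (YNR016C) were higher in RM, with log2 ratios of −1.15, −0.46, −0.25 and −0.35. OLE1 (YGL055W), the delta-9 desaturase gene, had 958 and 886 CPM in BY and 1903 and 1717 CPM in RM (−0.97 ± 0.04, adjusted p = 1.99e-15). Its ratio in the hybrid had the opposite sign, 1.47 ± 0.03. MGA2 (YIR033W), an activator of OLE1, was higher in BY by 0.73, and SPT23 (YKL020C), its paralog, higher in RM, at −0.41. The phospholipid methylation genes CHO2 (YGR157W) and OPI3 (YJR073C) were higher in BY by 0.67 and 0.78. The other called members were ELO1 (YJL196C), a fatty acid elongase gene, at 0.49, FAA4 (YMR246W), an acyl-CoA synthetase gene, at 0.31, CHO1 (YER026C), the phosphatidylserine synthase gene, at 0.21, and ELO2 (YCR034W), another elongase gene, higher in RM at −0.27.

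Most iron and copper genes were higher in RM. Yeast takes up iron by reductases, a permease with its ferroxidase, and siderophore carriers, under the activator Aft1. Of 17 tested genes, 11 were called in RM (64.7%, beside 16.7% of all tested pairs) and 2 in BY (11.8%, beside 25.1%). Their median was −0.68, and with TMM scaling 12 and 1 were called. FTR1 (YER145C), the high-affinity iron permease gene, had 600 and 590 CPM in BY and 1220 and 1195 CPM in RM (−1.02 ± 0.04). FET3 (YMR058W), its ferroxidase partner, had 1306 and 1252 CPM in BY and 1226 and 1162 CPM in RM, a small gap between the strains, with a ratio of 0.10 ± 0.04 (adjusted p = 0.0397) that was not called with TMM scaling (0.02, adjusted p = 0.728). The reductase gene FRE1 (YLR214W) had 478 and 524 CPM in BY and 961 and 1043 CPM in RM, FRE2 (YKL220C), another, was at −2.03, and the siderophore carrier genes ARN1 (YHL040C) and SIT1 (YEL065W) at −1.05 and −0.81. For HMX1 (YLR205C), a heme oxygenase gene whose enzyme frees iron from heme, levels were 15 and 19.9 CPM in BY and 126 and 158 CPM in RM (−3.02 ± 0.16). FRE4 (YNR060W), a further reductase gene, was at −2.91 ± 0.26. FET4 (YMR319C), a low-affinity carrier of iron and other metals, stood out in BY, with 479 and 451 CPM against 47.1 and 47.3 CPM in RM (3.30 ± 0.10). AFT1 (YGL071W) was not called (−0.16, adjusted p = 0.183). CTR3 (YLR411W), a copper transporter gene, had 8.25 and 12.8 CPM in BY and 194 and 195 CPM in RM (−4.17 ± 0.18), and unlike HMX1 and FRE4 it had a ratio of that kind in the hybrid too, −4.73 ± 0.17.

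Aft1 binds TGCACCC, which stood in 11 of the 16 windows that could be read (68.8%), 7 of 11 called in RM and both called in BY, FET3 and FET4, beside 2.33% of all windows. A site of a gene higher in RM and one of a gene higher in BY are shown.
FTR1: cgtagatgaaTGCACCCgatttctaag
FET4: ccttcttaatTGCACCCattagtttag
They lie at chrV:461899-461925 and chrXIII:914735-914761, both on the minus strand. Of 7 zinc genes, 2 were called in each direction (28.6%, beside 25.1% of all tested pairs in BY and 16.7% in RM), and with TMM scaling 2 in BY and 3 in RM. ZAP1 (YJL056C), the zinc-responsive activator gene, was higher in BY by 0.64 ± 0.13 and ZRC1 (YMR243C), a vacuolar zinc carrier gene, higher in RM at −0.48 ± 0.05.

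Several phosphate genes, the high-affinity transporter gene among them, were higher in BY, and others were higher in RM. The activator Pho4 drives many genes for scavenging and storing phosphate. Of 13 tested genes, 7 were called in BY (53.8%, beside 25.1% of all tested pairs) and 2 in RM (15.4%, beside 16.7%). Their median was 0.29. PHO84 (YML123C), the high-affinity transporter gene, had 2943 and 2828 CPM in BY and 899 and 866 CPM in RM, and its log2 ratio was 1.71 ± 0.03 (adjusted p = 1.53e-20). Its reads are uncertain because it overlaps another gene. VTC3 (YPL019C), a subunit gene of the vacuolar polyphosphate polymerase, had 2278 and 2321 CPM in BY and 622 and 563 CPM in RM (1.96 ± 0.04). The BY values of both genes were more than 3-fold above those of RM. SPL2 (YHR136C), which lowers low-affinity uptake, had 77.2 and 78.4 CPM in BY and 12.5 and 12 CPM in RM (2.66 ± 0.21), and PHO8 (YDR481C), the vacuolar phosphatase gene, was at 1.32 ± 0.10. The low-affinity carrier genes were PHO87 (YCR037C), higher in RM at −0.50, and PHO90 (YJL198W), not called at 0.04. GIT1 (YCR098C), a glycerophosphoinositol permease gene, was 2.02-fold higher in RM, with 9.75 and 12.8 CPM in BY and 21.3 and 24.6 CPM in RM (−1.01 ± 0.29, adjusted p = 0.00747). PHO4 (YFR034C) was not called (0.08, adjusted p = 0.697).

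The Pho4 core CACGTG, its own reverse complement, stood in the windows of 7 of 13 members (53.8%), 6 of the 7 called in BY and 0 of the 4 not called, beside 6.23% of all windows. The factor Cbf1 binds the same letters, which stood in 16 of 22 methionine and sulfur genes (72.7%). Those were 5 of 7 called in BY, 3 of 5 called in RM and 8 of 10 not called. A site of each of 2 genes is shown.
PHO84: ttatttccagCACGTGgggcggaaat
VTC3: cagtcgcaagCACGTGcatgcgattt
They lie at chrXIII:26199-26224 and chrXVI:517314-517339, both on the minus strand.

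Heat shock and chaperone genes were mostly higher in BY. Chaperones fold or disaggregate proteins, and their genes answer to Hsf1. Of 14 tested genes, 10 were called in BY (71.4%, beside 25.1% of all tested pairs) and 1 in RM (7.14%, beside 16.7%). Their median was 0.55, and with TMM scaling 9 and 1 were called. HSP104 (YLL026W), the disaggregase gene, had 578 and 622 CPM in BY and 236 and 253 CPM in RM (1.30 ± 0.06, adjusted p = 1.84e-13). SIS1 (YNL007C), a co-chaperone gene, had 637 and 734 CPM in BY and 353 and 393 CPM in RM (0.88 ± 0.06). HSP78 (YDR258C), a mitochondrial disaggregase gene, was at 1.70 and HSP30 (YCR021C), a membrane stress protein gene, at 1.07. HSP60 (YLR259C), the chaperonin gene of mitochondria, went the other way, with 1565 and 1558 CPM in BY and 2064 and 2057 CPM in RM (−0.40 ± 0.03). HSF1 (YGL073W) was not called (0.17, adjusted p = 0.225). DESeq2 called 6 members higher in BY in place of 10.

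Some storage carbohydrate and general stress genes were also higher in BY. Of 15 tested, 6 were called in BY (40%, beside 25.1% of all tested pairs) and 0 in RM (beside 16.7%). The median was 0.45, and with TMM scaling 5 and 0 were called. The 6 called were TPS1 (YBR126C) and TSL1 (YML100W), of trehalose synthesis, at 0.49 and 0.73, ATH1 (YPR026W), of trehalose breakdown, at 1.29, GSY1 (YFR015C) and GSY2 (YLR258W), the glycogen synthase genes, at 0.45 and 1.20, and HSP12 (YFL014W), a membrane stress gene, at 1.00. DESeq2 called 3 of them. Of 15 oxidative stress genes, 8 were called in BY (53.3%, beside 25.1%) and 3 in RM (20%, beside 16.7%), at a median of 0.26. SOD1 (YJR104C), the copper-zinc superoxide dismutase gene, had 4155 and 4055 CPM in BY and 1251 and 1302 CPM in RM (1.68 ± 0.03), and its ratio in the hybrid was 1.87 ± 0.03. GLR1 (YPL091W), the glutathione reductase gene, and TSA1 (YML028W), a peroxiredoxin gene, were higher in RM at −0.51 and −0.37.

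RPN4 (YDL020C), the activator gene of the proteasome, was about 8-fold higher in BY, and 11 of the other 23 tested members of the proteasome list were called higher in BY. RPN4 had 392 and 375 CPM in BY and 57.4 and 41 CPM in RM (2.98 ± 0.11, adjusted p = 1.05e-15). The strains lay far apart, and the hybrid had a like ratio, 3.16 ± 0.11. Of 24 tested genes with RPN4, 12 were called in BY (50%, beside 25.1% of all tested pairs) and 0 in RM (beside 16.7%). Their median was 0.16 beside 0.08 for all pairs. With TMM scaling 8 were called in BY and 1 in RM, and without replicates 1 and 2 the BY count was 7 and 6. PRE7 (YBL041W), a core subunit gene, had 742 and 693 CPM in BY and 216 and 196 CPM in RM, 3.49-fold higher in BY (adjusted p = 5.85e-16), while the other called subunits had ratios from 0.14 for RPN1 (YHR027C) to 0.64 for RPT2 (YDL007W). Rpn4 binds GGTGGCAAA, which stood in 20 of 24 windows (83.3%), 11 of 12 called and 9 of 12 not called, beside 1.65% of all windows. The site of PRE7 is shown beside that of PRE1 (YER012W), a core subunit gene that was not called (0.10, adjusted p = 0.182).
PRE7: aaactcaaagGGTGGCAAAaacaagcggt
PRE1: aaatctttacGGTGGCAAAaaataaagaa
They lie at chrII:141150-141178 and chrV:177683-177711, both on the plus strand, and the run of 9 letters is the same in both.

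**Figure D3:**
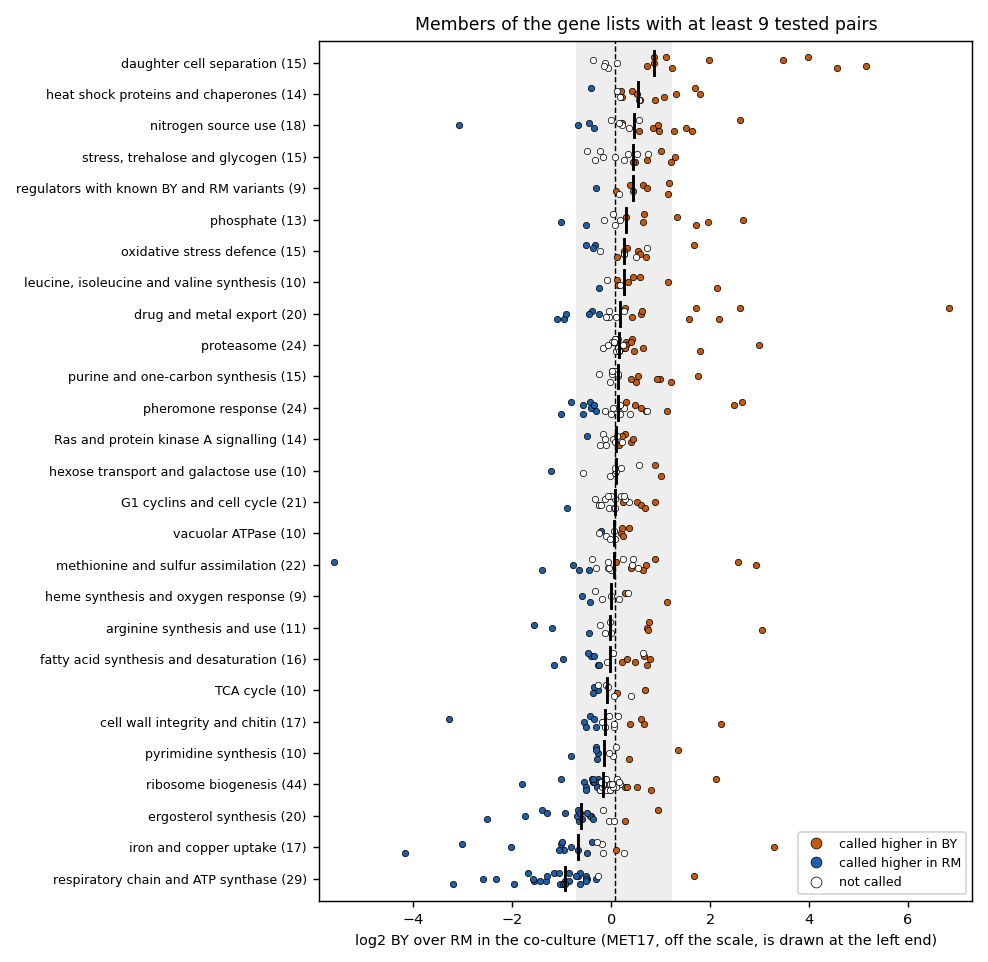
Each point is a tested member of a gene list, at its log2 BY over RM in the co-culture (x axis), coloured by call, with the list's number of tested members in brackets and its median as a bar. The grey band spans the 5th to 95th percentile of all tested pairs (−0.695 to 1.21) and the dashed line is their median. Daughter cell separation has the highest median (0.87) and the respiratory chain the lowest (−0.94) among the lists drawn; the point of ARR3 at the right end of drug and metal export is a fitted value of a pair with 0 RM reads.

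Amino acid and nucleotide genes moved in part. Of 10 genes for leucine, isoleucine and valine, 7 were called in BY (70%, beside 25.1% of all tested pairs) and 1 in RM (10%, beside 16.7%). Their median was 0.26, and with TMM scaling 5 and 1 were called. BAT2 (YJR148W), the cytosolic branched-chain transaminase gene, had 516 and 531 CPM in BY and 132 and 107 CPM in RM, about 4-fold apart (2.14 ± 0.09, adjusted p = 4.03e-15). BAT1 (YHR208W), its mitochondrial counterpart, was at 0.11 ± 0.04. ILV2 (YMR108W), ILV3 (YJR016C) and LEU1 (YGL009C) were at 0.45, 0.59 and 0.34, and ILV6 (YCL009C), a regulatory subunit gene, was higher in RM at −0.25. Of 15 purine and one-carbon genes, 7 were called in BY (46.7%, beside 25.1%) and 0 in RM (beside 16.7%). Their median was 0.14, and with TMM scaling 7 and 1 were called. GCV2 (YMR189W), of the glycine cleavage complex, had 244 and 270 CPM in BY and 77.3 and 75 CPM in RM (1.76 ± 0.10), while its ratio in the hybrid was −0.71 ± 0.09. ADE1 (YAR015W) and ADE13 (YLR359W), enzyme genes of purine synthesis, were at 0.99 and 0.50. Of 10 pyrimidine genes, 2 were called in BY (20%, beside 25.1%) and 5 in RM (50%, beside 16.7%). URA8 (YJR103W), a CTP synthase gene, was at 1.34 ± 0.08 and FUI1 (YBL042C), the uridine permease gene, at −0.82 ± 0.06.

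Of 11 arginine genes, 4 were called in BY (36.4%, beside 25.1% of all tested pairs) and 3 in RM (27.3%, beside 16.7%), and with TMM scaling 4 and 5. ARG4 (YHR018C), the argininosuccinate lyase gene, had 310 and 350 CPM in BY and 36.8 and 42.8 CPM in RM (3.05 ± 0.11), with 2.70 ± 0.12 in the hybrid. CAR2 (YLR438W), the ornithine transaminase gene of arginine breakdown, had 185 and 189 CPM in BY and 557 and 558 CPM in RM (−1.57 ± 0.07). Of 22 methionine and sulfur genes, 7 were called in BY (31.8%) and 5 in RM (22.7%), near the shares of all tested pairs (25.1% and 16.7%). MMP1 (YLL061W), the S-methylmethionine permease gene, was at −1.39 ± 0.09 and SAM1 (YLR180W), an S-adenosylmethionine synthetase gene, at −0.77 ± 0.03. The histidine genes HIS4 (YCL030C) and HIS1 (YER055C) were at 0.83 and 0.46, and 0 of 5 were called in RM. Lysine had LYS14 (YDR034C), the activator gene of the pathway, at 1.56 ± 0.18 and LYS4 (YDR234W), the homoaconitase gene, at −0.65 ± 0.14, of 5 tested. Without replicate 2, LYS4 was at −0.56 and not called. Of 18 genes for poor nitrogen sources, 9 were called in BY (50%, beside 25.1%) and 4 in RM (22.2%, beside 16.7%), at a median of 0.46. Without replicate 2, 4 were called in BY, as were 4 of the 9 members with a mean of at least 50 reads. GDH3 (YAL062W), a glutamate dehydrogenase gene, had 104 and 106 CPM in BY and 36.8 and 31.5 CPM in RM (1.63 ± 0.15), GAT1 (YFL021W), an activator gene, was at 0.84 ± 0.11, and GLT1 (YDL171C), the glutamate synthase gene, at −0.68 ± 0.04.

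Export pumps and the cell wall held large ratios in both directions. PDR5 (YOR153W), the main multidrug ABC pump gene, had 7858 and 7836 CPM in BY and 2335 and 2436 CPM in RM (1.72 ± 0.03, adjusted p = 6.78e-23). PDR3 (YBL005W), an activator gene of PDR5, had 374 and 360 CPM in BY and 124 and 122 CPM in RM (1.58 ± 0.08), and PDR1 (YGL013C), the other activator gene, was not called (0.10, adjusted p = 0.375). Both PDR5 and PDR3 were about 3-fold apart, and their ratios in the hybrid were 0.96 and 0.81. QDR2 (YIL121W), an exporter gene, had 351 and 358 CPM in BY and 53.7 and 62.4 CPM in RM (2.60 ± 0.10), and −0.13 in the hybrid. TPO1 (YLL028W), a polyamine exporter gene, and PDR12 (YPL058C), a weak acid pump gene, were higher in RM at −1.09 and −0.91. Of the 20 export genes, 9 were called in BY (45%, beside 25.1% of all tested pairs) and 6 in RM (30%, beside 16.7%).

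CWP1 (YKL096W), a mannoprotein gene of the wall, was 9.63-fold higher in RM, with 376 and 367 CPM in BY and 3523 and 3623 CPM in RM (−3.27 ± 0.04, adjusted p = 2.66e-24). CCW12 (YLR110C), another mannoprotein gene, had 5830 and 8254 CPM in BY and 8578 and 11329 CPM in RM, and was higher in RM within each library (−0.50 ± 0.02). CHS3 (YBR023C), the chitin synthase gene for most wall chitin, had 665 and 597 CPM in BY and 140 and 130 CPM in RM (2.22 ± 0.07), with 2.53 ± 0.06 in the hybrid. FKS1 (YLR342W), the glucan synthase gene, was at −0.17 ± 0.02. Of the 17 wall genes, 4 were called in BY (23.5%, beside 25.1% of all tested pairs) and 7 in RM (41.2%, beside 16.7%). Among 5 adhesion genes, FIG2 (YCR089W), a mating adhesin gene, had 107 and 89.9 CPM in BY and 15.5 and 15.8 CPM in RM (2.64 ± 0.19), AGA1 (YNR044W), the anchor gene of a-agglutinin, was at 0.61 ± 0.07, and TEC1 (YBR083W), an activator gene of filamentous growth, was higher in RM at −1.14 ± 0.08. FLO8 (YER109C), the flocculation activator gene that is mutated in the laboratory lineage, was not called (0.11, adjusted p = 0.662).

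Some mating genes of a cells differed between strains although both are of mating type a. MFA1 (YDR461W), a gene of the a-factor precursor, had 420 and 450 CPM in BY and 189 and 210 CPM in RM (1.12 ± 0.07, adjusted p = 2.42e-11). STE2 (YFL026W), the receptor gene for alpha-factor, had 3318 and 3411 CPM in BY and 5009 and 4943 CPM in RM (−0.56 ± 0.03), and BAR1 (YIL015W), whose protease degrades alpha-factor, was at −0.41 ± 0.05 and, without replicate 2, at −0.31 and not called. Of these genes MFA1 was thus higher in BY, and STE2 and BAR1 were higher in RM. MFA2 was not measured, and STE6, another a-cell marker, had 2142 and 2516 reads in BY and 2109 and 2539 in RM. Of 24 pheromone response genes, 7 were called in BY (29.2%, beside 25.1% of all tested pairs) and 8 in RM (33.3%, beside 16.7%). FUS3 (YBL016W), the mating kinase gene, was at −1.01, FAR1 (YJL157C), of cell cycle arrest, at −0.42, SST2 (YLR452C), whose product dampens signalling, at 0.29 and KAR4 (YCL055W), a karyogamy regulator gene, at 2.49 on 2.21 and 4.41 CPM in RM. Ste12, the factor of the pathway, binds TGAAACA, which stood in 18 of 24 windows (75%) beside 12% of all. The alpha-cell genes SAG1 (YJR004C) and AFB1 (YLR040C) were not called (0.51 and −0.43). LYS2 (YBR115C), a lysine gene with 589 and 608 CPM in BY and 543 and 556 CPM in RM, was not called either. In the hybrid libraries LYS2 had 872 and 1352 BY reads and 0 RM reads in each. The RM copy read in the co-culture was thus not read in the hybrid, and the cause was not tested.

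Regulators in which BY and RM are known to carry different alleles were themselves mostly higher in BY. Of 9 tested, 7 were called in BY (77.8%, beside 25.1% of all tested pairs) and 1 in RM (11.1%, beside 16.7%). Their median was 0.44, and with TMM scaling 5 and 1 were called. Beside AMN1 and HAP1, IRA2 (YOL081W), an inhibitor of Ras, had 710 and 707 CPM in BY and 515 and 529 CPM in RM (0.44 ± 0.05), the same as its hybrid ratio of 0.44 ± 0.06. ZAP1 was at 0.64, CAT5 (YOR125C), of ubiquinone synthesis, at 0.72 and MIP1 (YOR330C), the mitochondrial DNA polymerase gene, at 0.38. CYS4 (YGR155W), of cysteine synthesis, was at 0.09 and, like MIP1, was not called with TMM scaling or without either replicate (0.12 and 0.06 for CYS4, 0.30 and 0.47 for MIP1). GPA1 (YHR005C), the G-protein subunit gene of the mating pathway, had 328 and 319 CPM in BY and 383 and 411 CPM in RM (−0.30 ± 0.07). Without replicate 2 the ratios of GPA1 and CAT5 were −0.22 and 0.53 and were not called. MKT1 (YNL085W), a post-transcriptional regulator, had 296 and 334 CPM in BY and 305 and 267 CPM in RM, which overlap, and was not called (0.15, adjusted p = 0.146). Of the 14 genes of Ras and protein kinase A signalling, 5 were called in BY (35.7%, beside 25.1% of all tested pairs) and 1 in RM (7.14%, beside 16.7%), none at 2-fold. With TMM scaling 3 and 1 were called, beside 19.5% and 21.7% of all tested pairs.

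Many ribosome biogenesis genes were higher in RM, and a few were higher in BY. Of 44 ribosome biogenesis genes, 19 were called in RM (43.2%, beside 16.7% of all tested pairs) and 5 in BY (11.4%, beside 25.1%). Their median was −0.17, and with TMM scaling 24 and 4 were called. Without replicate 2, 12 were called in RM, and with DESeq2 7. NSR1 (YGR159C), a nucleolin-like gene, had 1144 and 1016 CPM in BY and 1641 and 1443 CPM in RM (−0.51 ± 0.04), BRX1 (YOL077C), of the large subunit, had 184 and 217 CPM in BY and 665 and 740 CPM in RM, and UTP22 (YGR090W), of the small subunit, was at 2.11 ± 0.09, with hybrid ratios of −1.59 for BRX1 and 2.24 for UTP22. Cytosolic ribosomal protein genes, taken by symbol after the values were seen, had 22 of 69 called in BY and 28 in RM. The shares over all tested pairs were 25.1% and 16.7%. Under TMM scaling 16 and 32 of these genes were called, and many of them have near-identical paralogs. Among the called pairs with the most reads, PMA1 (YGL008C), the plasma membrane proton pump gene, had 16641 and 16871 CPM in BY and 17563 and 17466 CPM in RM (−0.06 ± 0.02, adjusted p = 0.00745), and was not called without replicate 1 (−0.05). RPL3 (YOR063W) and YEF3 (YLR249W), of the ribosome and its elongation cycle, were at −0.22 and −0.26, and GPM1 (YKL152C), a glycolysis gene, UTH1 (YKR042W) and TOS1 (YBR162C), wall genes, at 0.16, 0.23 and 0.34. ZEO1 (YOL109W), at 0.07, was not called with TMM scaling, where it stood at −0.01, or without either replicate (0.05 and 0.08). CLN3 (YAL040C), the G1 cyclin gene that starts the cell cycle, had 230 and 240 CPM in BY and 434 and 444 CPM in RM (−0.90 ± 0.07), and the next cyclin gene, CLN1 (YMR199W), was at 0.68 ± 0.11. Of the 21 cell cycle genes, 5 were called in BY (23.8%, beside 25.1% of all tested pairs) and 1 in RM, and with TMM scaling 4 and 3.

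The remaining lists are given by their counts, beside 41.9% of all tested pairs called. Of 10 hexose and galactose genes, 2 were called in BY and 1 in RM, SUC2 (YIL162W), the invertase gene, being at 1.01 ± 0.08 and HXT2 (YMR011W), a glucose transporter gene, at −1.22 ± 0.07. With TMM scaling 2 were called in each direction. Of 10 vacuolar ATPase genes, 4 were called in BY and 1 in RM, all within 2-fold, and with TMM scaling 2 and 3, so its direction turns with the scaling. Of 5 histone genes, 2 were called in RM, and of 7 thiamine and vitamin B6 genes, 1 was called in BY and, with TMM scaling, 1 in each direction.

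The largest ratios of the co-culture fell into pairs with a like ratio in the hybrid and pairs without. The 12 largest in each direction, among called pairs with a mean of at least 50 reads and over 3 reads in each allele, ran from 3.35 to 6.25 in BY and from −2.03 to −4.17 in RM. YBT1 (YLL048C), a vacuolar ABC transporter gene, had 921 and 902 CPM in BY and 16.2 and 8.19 CPM in RM (6.25 ± 0.12), and 5.95 ± 0.08 in the hybrid. WHI4 (YDL224C), an RNA-binding protein gene, had 484 and 575 CPM in BY and 42.7 and 41.6 CPM in RM (3.66 ± 0.10), with a like ratio in the hybrid (adjusted p of the difference 0.856), and MRH1 (YDR033W), a membrane protein gene, was at 3.35 and 3.52. SLH1 (YGR271W), a helicase gene of ribosome quality control, was at −3.95 and −3.48. For each of these 4 the difference between co-culture and hybrid was not called. YCL021W-A, at 4.44 and 4.07, was not called for the difference either. RPL14B (YHL001W), a ribosomal protein gene with a near-identical paralog, was at 5.83 and 4.86, and its difference was called. Among the other large ratios in BY, NDJ1 (YOL104C), of meiotic telomeres, had 194 and 217 CPM in BY and 4.42 and 6.93 CPM in RM (5.14 ± 0.19, with 1.79 in the hybrid), and GAS2 (YLR343W), of the spore wall, was at 4.87 ± 0.13, with 2.57 in the hybrid. In RM, YAP6 (YDR259C), a transcription factor gene, was at −2.40 ± 0.15, with −0.63 in the hybrid, and OCT1 (YKL134C), a mitochondrial peptidase gene, YPL088W and YIR042C were at −2.05, −2.11 and −2.25, with −1.83, −1.90 and −2.48 in the hybrid.

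**Figure D4:**
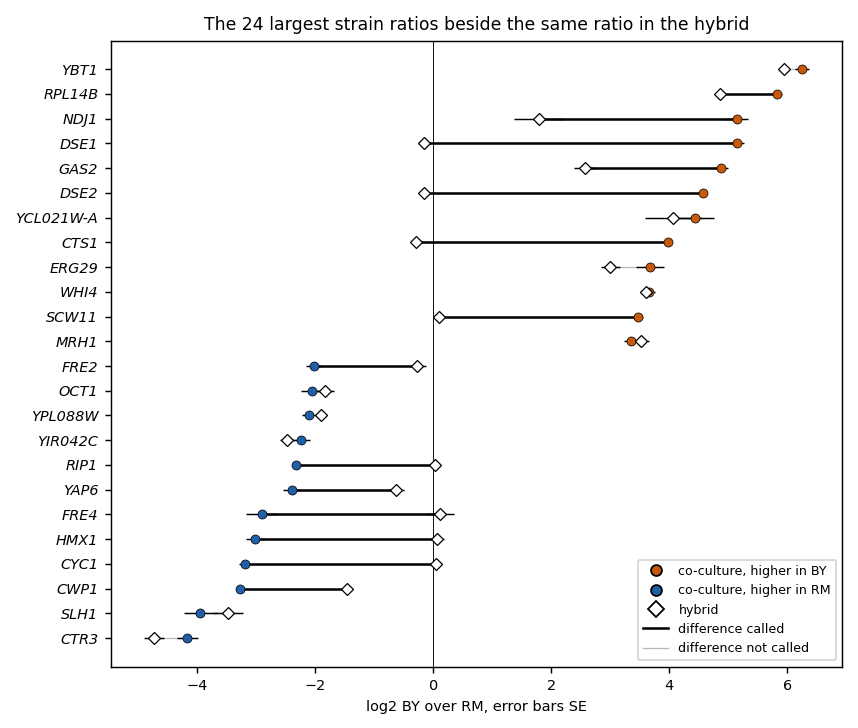
The 24 largest strain ratios, with log2 BY over RM on the x axis as circles for the co-culture and diamonds for the hybrid, and SE as error bars; thick lines join pairs whose difference was called. The difference was called for 14 of the 24 and was not called for the other 10. Among the 14 were CTS1, DSE1, DSE2 and SCW11, whose diamonds lie between −0.30 and 0.09. Over all pairs the difference was called for 1151 of 4269 (27.0%). The 24 were picked by their co-culture ratios, which also enter the difference, so the pick favours a called difference.

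Over all called pairs at least 2-fold apart, 364 were tested in the hybrid, where 227 were called in the same direction, 11 in the opposite direction and 126 not called, beside 24.2% of all hybrid pairs called. The difference between co-culture and hybrid was called for 158 of them, beside 1151 of all 4269 pairs in that test (27.0%). These pairs were chosen by their co-culture ratio, which also enters the difference, so the choice favours a called difference.

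Some pairs had 3 reads or fewer from a strain over both libraries. DNF2 (YDR093W), a phospholipid flippase gene, had 435 BY reads and 0 RM reads, at least 148-fold higher in BY. RSC3 (YDR303C), of the RSC chromatin remodeller, was read 478 times from BY and 2 times from RM, 244-fold with a 95% counting interval of 67.1 to 2017. YJR142W was read 327 times from BY and 1 time from RM, 333-fold (59.4 to 13204). PTK1 (YKL198C), a kinase gene of polyamine uptake, was read 2 times from BY and 436 times from RM, 214-fold (58.9 to 1772). In the hybrid these 4 had at most 1 read per library from the same allele. IME1 was read 213 times from BY and 2 times from RM, 109-fold (29.7 to 902), and in the hybrid libraries 44 and 72 times from BY and 8 and 17 times from RM. These pairs were named after their values were seen.

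The call rate rose with reads, and the lean towards a strain changed with it. Of 372 pairs with under 100 reads over the 4 columns, 22% were called, 69 in BY and 13 in RM, and the smallest called log2 ratio was 0.836. Of 394 pairs with 3000 reads or more, 76.9% were called, 110 in BY and 193 in RM, and the smallest called ratio was 0.0638. The median log2 ratio went from 0.256 in the first class over 0.139, 0.107 and 0.0358 to −0.0965 in the last. In the hybrid the medians of the same classes were −0.0361, 0.0117, 0.00192, 0.0242 and 0.0083. By chromosome the median ran from 0.036 on chromosome II to 0.185 on chromosome I, and the share called from 34.3% on chromosome XIV to 53.2% on chromosome I.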

How the data were processed

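The values are read counts on SNP sites, as deposited by the authors and, per the file headers, in separate BY and RM columns per gene pair, with no scaling. The submitters' processing notes name CASAVA 1.8.2 and Bowtie, while the sources used here give neither build nor SNP set. Whether reads of both alleles were assigned equally well was not tested. Per the labels' protocols, each product was split into 2 PCR reactions of 12 cycles, and which reaction or culture a library came from is not stated.

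The strains were tested two-sided in R 4.3.3 with the quasi-likelihood test (glmQLFit, glmQLFTest) of edgeR 4.0.16 on the 4 co-culture columns, blocked by library, each column scaled by its own total, filterByExpr at its minimum count of 10, 1 residual degree of freedom and Benjamini-Hochberg adjustment at 0.05. The fit left out 218 pairs. The pairing in the block is the shared library of a BY and an RM column. Co-culture and hybrid ratios were compared in a fit of all 8 columns. Scripts were tested on simulated data.

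Names came from R64 by systematic name: 4325 matched, and of the 117 others 72 were tested and 17 called. Of the tested pairs, 79 overlap another gene, and strand is not stated. The members and lists were chosen with earlier results of these data known. Named were the 12 largest called ratios in each direction with a mean of at least 50 reads, the same direction in both libraries and more than 3 reads per allele, up to 3 called members per list by smallest p, all regulators and markers, and the 6 called pairs per direction with the most reads. Further list members were named after their values were seen. A few items that this rule names are not reported here. Genes not named in the files, such as HIS3, LEU2, URA3, HO and MFA2, were not analysed here. No sample column was left unused (0).

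Alternatives were TMM, RLE and shared library totals, DESeq2 1.42.0, other filters, all 8 columns, no block, a 1.25-fold minimum, exact binomial tests, no overlapping or unmatched genes, and each library left out, with the spread then taken from the hybrid libraries.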

Additional observations from a re-analysis of the deposited data

Results flagged for a closer look

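The results below were singled out because the log2 BY over RM ratio of a pair differed between the co-culture and the hybrid by edgeR's test of that difference (adjusted p under 0.05), either among the 24 largest ratios of the co-culture or, for other named pairs, with calls in opposite directions in the 2 cultures. The value given is the co-culture ratio minus the hybrid ratio. Picking pairs by a large co-culture ratio favours a called difference, because that ratio enters the test.

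Among the largest ratios higher in BY, the difference was 5.28 for DSE1, 4.74 for DSE2, 4.27 for CTS1 and 3.38 for SCW11, all of daughter cell separation. It was 3.36 for NDJ1 and 2.30 for GAS2, of meiosis and the spore wall, and 0.96 for RPL14B, whose near-identical paralog makes its reads uncertain.

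Among the largest ratios higher in RM, the difference was −3.24 for CYC1 and −2.36 for RIP1, of the respiratory chain. It was −3.08 for HMX1, −3.02 for FRE4 and −1.76 for FRE2, of heme and iron use. For CWP1, of the cell wall, it was −1.79, and for YAP6, a transcription factor gene, −1.77.

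Calls in opposite directions were found for 8 other named pairs. PHO84 (2.11) and GCV2 (2.47) were higher in BY in the co-culture and higher from the RM allele in the hybrid. OLE1 (−2.45), ERG25 (−1.09), YHB1 (−0.88), FKS1 (−0.38), PFK1 (−0.33) and YEF3 (−0.32) were higher in RM in the co-culture and higher from the BY allele in the hybrid. PHO84 overlaps another gene.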

How the results depend on the processing

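Calls in BY and RM stayed within 1.5 times their number under TMM, RLE or shared totals, other filters, 8 columns, and without overlapping genes. DESeq2 gave 362 and 284, a test against a minimum fold (glmTreat) gave 523 and 295, and exact binomial tests 607 and 446. Leaving out a library gave 566 to 662 in BY and 429 to 506 in RM. The strains are paired by library, and with no replicate block 930 and 603 were called.

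Counts in BY under DESeq2, for lists, were 6 for heat shock, 4 for the proteasome, 3 for stress and 4 for nitrogen, and for ribosome biogenesis in RM 7. The fold minimum gave 3 for the proteasome, 4 for leucine and 5 for ribosome biogenesis. Binomial tests gave 7 for the proteasome and 4 for nitrogen, as did a mean of at least 50 reads for nitrogen. Leaving out a library gave 6 to 7 for the proteasome, 4 to 6 for nitrogen and 12 to 13 for ribosome biogenesis. The respiratory, sterol, iron, daughter separation and phosphate counts stayed within 1.5 times under each alternative.

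Of 129 named pairs, DESeq2 lost 21 calls and the fold minimum 26. Signs turned for ZEO1 under TMM (−0.01) and RLE (−0.02) and for MKT1, which was not called, without replicate 2 (−0.04), against 0.33 and a call without replicate 1. The cause was not tested. Among pairs under 100 reads the smallest called log2 ratio was 0.836 in size, and smaller ratios were not called at that depth.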
